A study of Mus musculus with 8 samples.

Results

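Class 3 semaphorins are the secreted semaphorins of vertebrates, and the 7 mouse genes Sema3a to Sema3g code for them. Each gene was taken as the row of the array's value table whose annotation names that gene alone, and all 7 had exactly 1 such row. They stand among 30751 genes with such a row, of which 17235 were bright enough to be tested. The values come from fibroblasts of the colon of wild-type C57BL/6J mice, with no treatment named and no age given in the sources used here. All cells had been sorted by flow cytometry as negative for Epcam, CD45 and CD31 and positive for gp38, the podoplanin coded by Pdpn. They were then split by CD90, the surface glycoprotein coded by Thy1, into a CD90-negative population (samples 13, 15, 17 and 19) and a CD90-positive population (samples 14, 16, 18 and 20). Each sample was hybridised to 1 array. Cells of 4 mice were used, but no label ties a sample to its mouse, and p-values therefore describe the spread among these 8 samples.

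Semaphorins of this class bind neuropilins, which lend affinity, and signal through plexins of class A or plexin D1, which control the cytoskeleton through small GTPases. They were found as repellents of growing axons, and they also steer blood vessels, lymphatics and neural crest cells. In the gut wall they are known from the ingrowth of nerve fibres and the migration of neural crest cells, and fibroblasts are among their sources.

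Values are log2 expression as the authors deposited it, differences are CD90-positive minus CD90-negative, and errors are SD over the 4 samples of a population. Levels of different genes come from different probes and are not compared. The highest deposited value was 19.85, which exceeds the log2 range of a 16-bit scanner (16), and folds hold for the deposited scale alone. The labels held: Thy1 was higher in all 4 CD90-positive samples than in any CD90-negative one, with a difference of 2.17 (p = 0.0286 in a two-sided exact permutation test, which cannot go lower with 4 samples a side). Pdpn was at 13.17 ± 0.2 and 13.20 ± 0.22, and of the 8 measured fibroblast markers 3 were called higher and 1 lower, with list means between 15.06 and 15.42 on all arrays. Samples 13 and 14 stood apart from the other 6 in both populations. They had 16.16 and 16.27 for Xist, which silences an X chromosome, against 5.89 to 9.32 in the others, and 5.49 and 5.56 for Y-linked Uty against 9.65 to 10.06. High Xist with low Uty is the pattern of female cells, and high Uty that of male cells, but no label gives a sex. Differences without samples 13 and 14 are therefore also given for the tested members. The array's negative control rows had a median of 6.81 (CD90-negative) and 6.64 (CD90-positive), and a mean below it is a caution about the size of a difference. On single arrays these medians ran from 6.791 to 6.836 and from 6.577 to 6.674, without overlap (p = 0.0286 in the exact permutation test). Small differences between the populations are to be read with this in mind. The arrays measure sorted cells in bulk, so fewer cells of a type and less RNA per cell cannot be told apart.

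Sema3d, Sema3a, Sema3e and Sema3c lie in the same stretch of chromosome 5, in this order, and all of them were higher in the CD90-positive population. The bases before their starts are shown because the genes moved in 1 direction while these stretches differ in make-up. Each is the 250 bases before a RefSeq start in GRCm38.p6, on the plus strand, 5′ to 3′, and capitals mark a GC box (GGGCGG) or the core of a cyclic AMP response element (CRE, TGACGT), sought on both strands.
Sema3d, chr5:12382916-12383165: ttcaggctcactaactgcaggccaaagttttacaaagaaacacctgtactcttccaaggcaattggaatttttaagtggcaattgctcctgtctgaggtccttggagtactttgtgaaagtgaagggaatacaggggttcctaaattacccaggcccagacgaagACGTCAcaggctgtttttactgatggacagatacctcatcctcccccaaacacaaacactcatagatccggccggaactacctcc
Sema3a, chr5:13396534-13396783: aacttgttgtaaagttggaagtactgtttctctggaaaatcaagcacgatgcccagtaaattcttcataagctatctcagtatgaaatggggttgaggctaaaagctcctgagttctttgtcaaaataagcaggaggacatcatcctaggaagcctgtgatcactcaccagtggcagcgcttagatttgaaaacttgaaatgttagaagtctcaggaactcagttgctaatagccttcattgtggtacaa
Sema3e, chr5:14025026-14025275: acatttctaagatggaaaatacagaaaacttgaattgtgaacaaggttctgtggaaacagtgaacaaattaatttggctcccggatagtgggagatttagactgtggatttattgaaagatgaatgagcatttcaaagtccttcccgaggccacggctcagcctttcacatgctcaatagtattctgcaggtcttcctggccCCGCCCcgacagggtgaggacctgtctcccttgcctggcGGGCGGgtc
Sema3c, chr5:17574566-17574815: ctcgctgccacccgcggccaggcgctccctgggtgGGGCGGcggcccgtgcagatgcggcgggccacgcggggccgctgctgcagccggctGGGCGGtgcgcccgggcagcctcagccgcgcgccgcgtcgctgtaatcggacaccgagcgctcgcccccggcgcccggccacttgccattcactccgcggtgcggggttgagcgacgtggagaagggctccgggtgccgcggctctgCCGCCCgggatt
The stretch before Sema3c had 78.4% G and C and 39 CpG pairs, more CpG pairs than 98.4% of the 32851 such stretches in the table. Those before Sema3d, Sema3a and Sema3e had 46.8%, 40.8% and 48.0% G and C and 4, 2 and 7 CpG pairs, around or below the median of 6. A GC box was matched 3 times before Sema3c and 2 times before Sema3e, and 32.7% of all stretches hold 1 or more. A CRE site of this short form (TGACGT) was matched before Sema3d, as in 6.5% of all stretches. No TATA box (TATAAA), AP-1 site (TGANTCA) or CACGTG element was matched in these 4 stretches, against 12.4%, 6.7% and 6.0% of all. The RefSeq table held 5 of the 7 genes; Sema3b and Sema3f were not among them.

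CD90-positive samples had higher values of 5 of the 7 genes and lower values of 1, each called, and Sema3g lay under the filter on dim rows and was not tested. Called means a limma adjusted p under 0.05, adjusted over all genes tested. Of all 17235 genes tested, 14.0% were called higher and 15.7% lower, 29.6% in all. In all 6 tested members the populations were apart without overlap, as in 32.2% of all genes tested. Sema3e reached the filter in CD90-positive samples alone, so it had to differ once it was tested. The members were chosen for their family, with results of these data already known, and the count is given as a description.

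**Figure D1:**
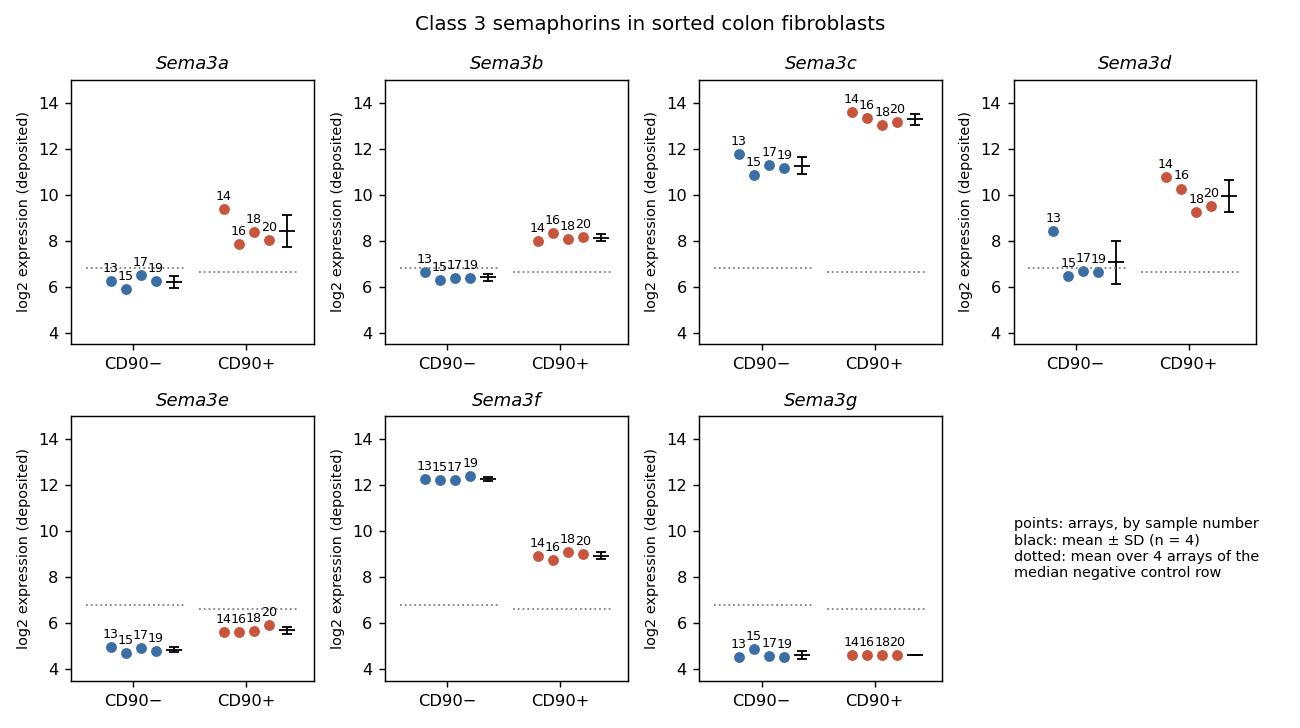
Log2 expression of the 7 class 3 semaphorins on each array, CD90-negative samples in blue and CD90-positive samples in red, with the mean and SD of each population (n = 4) and dotted lines at the negative control rows. Sema3f is the gene that was lower in the CD90-positive samples, at 8.74 to 9.09 against 12.23 to 12.43, and Sema3g stayed between 4.52 and 4.88 on all 8 arrays.

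Sema3c, which in development guides neural crest cells into the outflow tract of the heart, was bright in both populations. It was at 11.76, 10.87, 11.28 and 11.15 in the CD90-negative samples 13, 15, 17 and 19, and at 13.58, 13.32, 13.01 and 13.18 in the CD90-positive samples 14, 16, 18 and 20. The lowest CD90-positive value lay 1.24 above the highest CD90-negative one, and samples 13 and 14 were the highest of their populations. The difference was 2.01 (95% interval 1.57 to 2.44, limma adjusted p = 9e-05), 4.02-fold on the deposited scale. It was 1.82 between samples 14 and 13, and 2.07 over the other 6 samples.

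Sema3d, a guide of neural crest and endothelial cells, had the largest difference among the members that rose and also the widest spread. Its CD90-negative values were 8.44, 6.47, 6.68 and 6.64 in samples 13, 15, 17 and 19, so sample 13 stood far above the other 3, which lay below the negative control rows. Its CD90-positive values were 10.77, 10.27, 9.26 and 9.52 in samples 14, 16, 18 and 20. The populations were still 0.83 apart at their nearest samples. The difference was 2.90 (95% interval 1.80 to 4.00, limma adjusted p = 0.00215), and without samples 13 and 14 it was 3.09 (limma adjusted p = 0.000107).

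Sema3a, the growth cone collapsing factor that signals through neuropilin 1, rose from dim values. It was at 6.23, 5.89, 6.50 and 6.23 in the CD90-negative samples 13, 15, 17 and 19, with the mean below the negative control rows. It was at 9.38, 7.84, 8.39 and 8.05 in the CD90-positive samples 14, 16, 18 and 20, where sample 14 was the highest. The groups lay 1.34 apart at their nearest samples. The difference was 2.21 (95% interval 1.50 to 2.91, limma adjusted p = 0.000789), and without samples 13 and 14 it was 1.89 (limma adjusted p = 0.000365).

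Sema3b, a semaphorin also studied as a suppressor of tumour growth, rose from values with little spread. It was at 6.63, 6.28, 6.37 and 6.39 in the CD90-negative samples 13, 15, 17 and 19, again with a mean below the negative control rows. It was at 7.99, 8.32, 8.08 and 8.17 in the CD90-positive samples 14, 16, 18 and 20. Neither population spread over more than 0.35, and 1.36 separated them. The difference was 1.72 (95% interval 1.50 to 1.95, limma adjusted p = 4.66e-06), and without samples 13 and 14 it was 1.84 (limma adjusted p = 1.03e-05).

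Sema3e, which binds plexin D1 without a neuropilin and patterns vessels, was dim throughout. Samples 13, 15, 17 and 19 gave 4.96, 4.73, 4.91 and 4.79, and samples 14, 16, 18 and 20 gave 5.61, 5.63, 5.65 and 5.93. Both means lay below the negative control rows, 4.85 ± 0.11 and 5.71 ± 0.15. The populations did not overlap, and the difference was 0.86 (95% interval 0.65 to 1.07, limma adjusted p = 0.000172). Without samples 13 and 14 it was 0.93 (limma adjusted p = 0.000564).

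Sema3f, a ligand that acts through neuropilin 2 and repels axons and endothelial cells, was the member that fell. It was at 12.26, 12.23, 12.23 and 12.43 in the CD90-negative samples 13, 15, 17 and 19, and at 8.95, 8.74, 9.09 and 9.01 in the CD90-positive samples 14, 16, 18 and 20. The gap of 3.13 between the populations was far wider than the range within them, 0.20 and 0.36, and both lay above the negative control rows. The difference was -3.34 (95% interval -3.54 to -3.13, limma adjusted p = 1.34e-07), 10.1-fold lower on the deposited scale. It was -3.31 between samples 14 and 13 and -3.35 over the other 6.

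Sema3g, known from endothelium and also a ligand for neuropilin 2, gave 4.52, 4.88, 4.60 and 4.55 in samples 13, 15, 17 and 19 and 4.64, 4.62, 4.64 and 4.63 in samples 14, 16, 18 and 20. No array reached the filter of 5.36, the median of all transcript rows, and the populations overlapped. In a fit without a filter the 95% interval of the difference ran from -0.19 to 0.19 (limma adjusted p = 1).

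**Figure D2:**
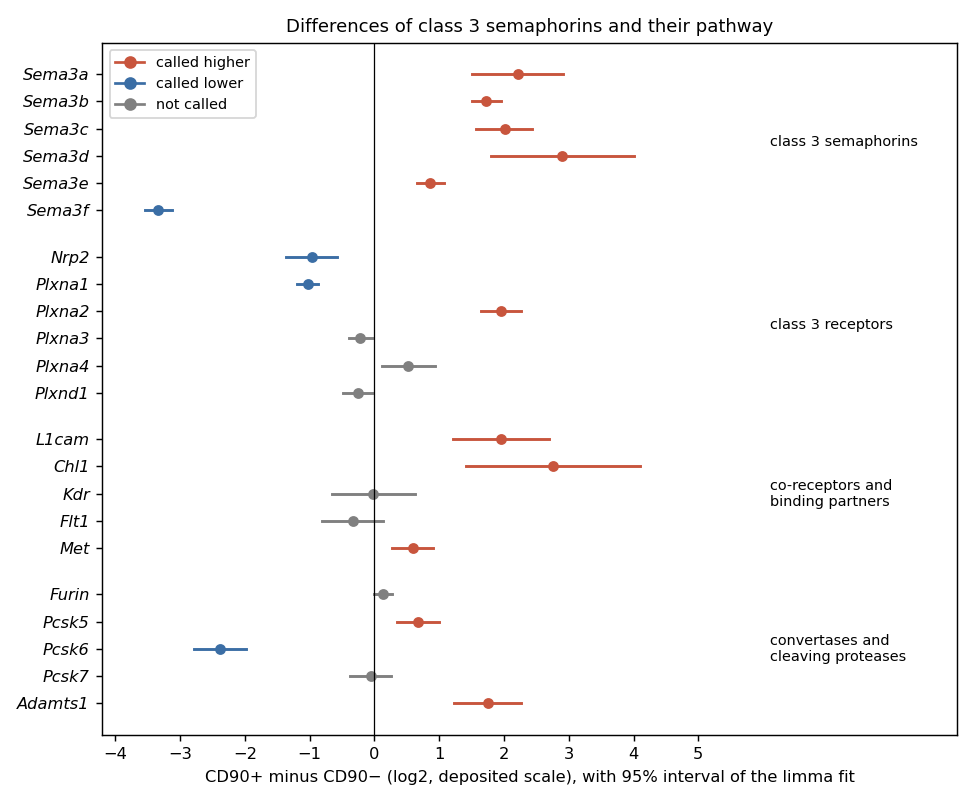
CD90-positive minus CD90-negative difference in log2 expression with its 95% interval from limma, for the tested class 3 semaphorins, their receptors, co-receptors and processing proteases; red was called higher, blue lower and grey not called. Sema3d has the widest interval of the semaphorins, 1.80 to 4.00, and Sema3f lies alone on the negative side among them at -3.34.

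The receptors did not move as a group. Of 7 listed neuropilins and plexins 6 were measured and tested, and 1 was called higher, 2 lower and 3 were not called. The share called over all genes tested was 29.6%. The median difference was -0.24 against -0.014 over all genes tested. The row that holds Nrp1 also names another gene and was not analysed here. Nrp2 codes for a neuropilin that binds Sema3f and Sema3g, and not these members alone. Nrp2 was at 14.16, 13.70, 13.73 and 13.78 in the CD90-negative samples 13, 15, 17 and 19, and at 13.37, 12.76, 12.60 and 12.79 in the CD90-positive samples 14, 16, 18 and 20. It fell by 0.96 (95% interval -1.36 to -0.57, limma adjusted p = 0.00333), and the populations lay 0.33 apart.

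Among the plexins, which carry the signal into the cell, Plxna1 and Plxna2 moved in opposite directions. Plxna1 was at 11.43, 11.21, 11.38 and 11.39 in samples 13, 15, 17 and 19 and at 10.32, 10.43, 10.32 and 10.24 in samples 14, 16, 18 and 20. Plxna2 was at 7.77, 7.17, 7.47 and 7.30 and at 9.62, 9.26, 9.33 and 9.36 in the same samples. Neither gene's populations overlapped: Plxna1 fell by 1.03 (limma adjusted p = 1.44e-05), and Plxna2 rose by 1.96 (limma adjusted p = 1.41e-05). Plxnd1, the receptor of Sema3e, was at 10.85 ± 0.18 and 10.59 ± 0.099, with overlapping populations and a 95% interval of -0.49 to -0.04 (limma adjusted p = 0.0786). Plxna3 was at 8.38 ± 0.083 and 8.17 ± 0.11 (limma adjusted p = 0.0636), and Plxna4 at 6.61 ± 0.23 and 7.13 ± 0.35 (limma adjusted p = 0.0599). These 3 lay near the threshold and each was called under some other settings: with array weights all of them passed, giving 2 receptors higher and 4 lower. Plxna4 was also called, and higher, without sample 15 (0.62, limma adjusted p = 0.0418) or without sample 18 (0.63, limma adjusted p = 0.0381). Plxnd1 was called, and lower, without sample 17 (-0.33, limma adjusted p = 0.0418). The difference of Plxna4 was 0.52 over all samples and 0.36 without samples 13 and 14 (limma adjusted p = 0.143).

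Class 3 semaphorins are cut by furin-like convertases, which changes their activity, and the metalloprotease ADAMTS1 has been reported to cut Sema3c. Of the 5 proteases listed, 2 were called higher, 1 lower and 2 not, beside 29.6% called over all genes tested. Pcsk6 was at 14.33, 15.25, 14.83 and 14.98 in the CD90-negative samples 13, 15, 17 and 19 and at 12.53, 12.63, 12.32 and 12.36 in the CD90-positive samples 14, 16, 18 and 20. It thus fell by 2.39 with no overlap (limma adjusted p = 2.09e-05). Adamts1 rose from 9.64 ± 0.5 to 11.39 ± 0.2 (limma adjusted p = 0.000552) and Pcsk5 from 9.85 ± 0.18 to 10.53 ± 0.26 (limma adjusted p = 0.00752). Furin itself was at 8.33 ± 0.035 and 8.46 ± 0.072 (difference 0.13, SE 0.06, limma adjusted p = 0.133), and Pcsk7 had a limma adjusted p of 0.806.

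Proteins that bind neuropilins or plexins beside the semaphorins were listed next. Of 8 genes, 5 were tested, 3 were called higher and 0 lower, and Nrcam, Cntn2 and Flt4 lay under the filter. The share called higher over all genes tested was 14.0%. L1cam, an adhesion molecule that joins neuropilin 1 in the response to Sema3a, was at 6.68, 6.43, 6.37 and 6.42 in samples 13, 15, 17 and 19 and at 7.43, 9.14, 8.28 and 8.85 in samples 14, 16, 18 and 20. Its relative Chl1 was at 6.18, 7.24, 7.83 and 7.71 and at 8.44, 11.20, 9.78 and 10.57 in the same samples. Both populations stayed apart in each gene, sample 14 was the lowest CD90-positive sample in both, and the differences were 1.95 and 2.76 (limma adjusted p = 0.00207 and 0.00799). Met, the receptor of hepatocyte growth factor and a partner of plexins, rose from 5.49 ± 0.25 to 6.08 ± 0.18, with both means under those of the negative controls (limma adjusted p = 0.0124). The receptors of vascular endothelial growth factor, which share neuropilins with the semaphorins, were not called: Kdr had a difference of -0.019 and Flt1 of -0.33 (limma adjusted p = 0.969 and 0.272).

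Inside the cell, 19 of 21 listed effectors were tested, and 6 were called higher, 6 lower and 7 not. Over all genes tested, 14.0% were called higher and 15.7% lower. Among the 6 higher, Dpysl4 reached the filter on CD90-positive arrays alone, so its direction and lack of overlap were fixed by the filter. Fyn, a kinase in the response to Sema3a, rose from 9.88 ± 0.23 to 11.91 ± 0.19 (limma adjusted p = 1.12e-05). Limk1, the kinase that inactivates cofilin, rose from 7.73 ± 0.088 to 9.23 ± 0.083 (limma adjusted p = 1.65e-06), while the cofilin gene Cfl1 fell by 0.41 (limma adjusted p = 0.00344). Mical2, whose protein oxidises actin, fell from 8.97 ± 0.14 to 7.67 ± 0.12 (limma adjusted p = 1.44e-05). Dpysl2, which codes for the collapsin response mediator CRMP2, rose by 0.45 (limma adjusted p = 0.0135). The list's median difference was 0.14, and its members ran from -1.30 to 2.02.

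Semaphorins of classes 4 to 7, most of them bound to the membrane, were counted in the same fit. Of 12 measured genes 10 were tested; 1 was called higher, 2 lower and 7 not, with differences from -1.77 to 0.33. The 3 called of 10 are close to the share of 29.6% over all genes tested. Sema6a fell from 9.99 ± 0.34 to 8.22 ± 0.15 (limma adjusted p = 7.34e-05), Sema4c from 9.79 ± 0.34 to 8.70 ± 0.19 (limma adjusted p = 0.00158), and Sema4b rose by 0.30 (limma adjusted p = 0.022). The difference between the classes was not tested.

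On chromosome 9, Sema3b and Sema3f lie close together with 3 protein-coding genes between them and were called in opposite directions. Between them, Gnai2, which codes for an inhibitory G protein subunit, was at 13.64 and 13.42 (limma adjusted p = 0.0772), and Slc38a3 and Gnat1 lay under the filter. Beyond Sema3f, Rbm5 and Rbm6 were called lower, at -0.30 and -0.19 (limma adjusted p = 0.0263 and 0.0435). Beyond Sema3b, Ifrd2 was not called (-0.08, limma adjusted p = 0.392). On chromosome 5, 18 protein-coding genes lie between Sema3d and Sema3c beside the other members, and of the 15 measured only 3 passed the filter. Of these Hgf, which codes for the ligand of Met, rose from 12.47 to 14.45 (limma adjusted p = 8.18e-06) and Cacna2d1, a calcium channel subunit gene, from 10.49 to 10.95 (limma adjusted p = 0.00616). Gm21083 was not called. Several of the dim genes there belong to the Speer family of near-identical copies, whose values are uncertain. Cd36, a fatty acid receptor gene next to Sema3c on the other side, rose from 7.08 to 8.97 (limma adjusted p = 0.00218). The shares over all genes tested were 14.0% called higher and 15.7% lower, and so few neighbours cannot be set against them. Gene order is that of RefSeq's GRCm38.p6, and these neighbours were looked at after the members' values were known.

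**Figure D3:**
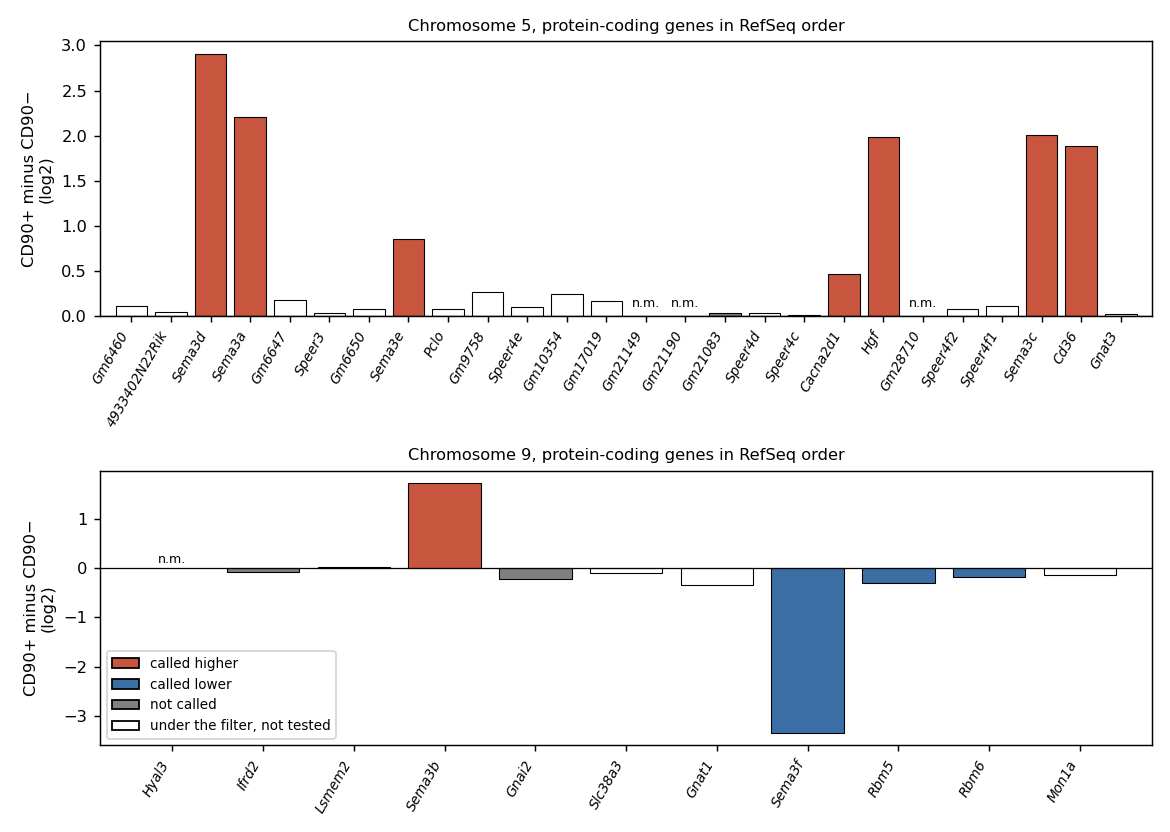
CD90-positive minus CD90-negative difference in log2 expression of the protein-coding genes around the class 3 semaphorins of chromosomes 5 and 9, in RefSeq order and not to scale in distance; open bars lay under the filter and n.m. marks genes not analysed. Sema3b at 1.72 and Sema3f at -3.34 point in opposite directions, and the chromosome 5 members all point up.

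The genes most like each member over the 8 arrays were sought among all tested genes, by the root mean square difference of log2 values after each gene was centred on its own mean. Most of this measure is the step between the populations, and all genes share the 8 arrays. Likeness in single samples is also part of the measure by which these genes were picked, and lends no separate support. For Sema3c the nearest were Hey1, a target of Notch signalling (0.1), the receptor gene Plxna2 (0.13) and the transporter gene Abca6 (0.14). Hey1 gave 7.67 for sample 13 against 6.60 to 7.16 for samples 15, 17 and 19. For Sema3d they were Plxdc2 (0.24), the alarmin gene Il33 (0.29) and the carboxylesterase gene Ces1d (0.33). Plxdc2 gave 11.29 for sample 13 against 8.74 to 8.83 for samples 15, 17 and 19. For Sema3a they were the claudin gene Cldn1 (0.14), Dipk1a (0.28) and the contactin gene Cntn4 (0.28), all highest in sample 14. For Sema3b they were Rassf2 (0.07), the protease gene Adamts10 (0.08) and Tppp3 (0.081), and for Sema3e Slc31a2 (0.087), Cyp2j6 (0.088) and Bche (0.092). For Sema3f they were the phosphatase gene Ptpre (0.14), Septin4 (0.19) and the protocadherin Fat1 (0.19), of which Ptpre fell from 9.66 to 6.15.

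Markers of other cells moved with the populations, and their part in the results was not tested. The counts of every marker list stand beside 14.0% called higher and 15.7% called lower over all genes tested. Of 8 measured enteric glia markers 7 were tested and 7 were called higher, of which Gfap reached the filter on CD90-positive arrays alone and so had to differ. Their mean level per array was 5.30 to 5.62 in the CD90-negative samples and 6.84, 8.12, 7.36 and 7.88 in samples 14, 16, 18 and 20. Cdh19 reached 11.74 in sample 16. Sox10, which defines glia, ran from 6.48 to 7.18 over the CD90-positive samples, near their negative control median of 6.64. Its CD90-negative mean, 5.64, was under the negative controls. Both means were under the negative controls in 3 of the 8 glia markers. Sema3b, L1cam and Chl1 had the same order of the CD90-positive samples as the glia mean, lowest in sample 14 and highest in sample 16; Sema3a, Sema3c and Sema3d were highest in sample 14. Smooth muscle and pericyte markers had a mean of 9.43 in sample 14 and 8.52 to 8.57 in the other CD90-positive samples, and 9.09 in sample 13 against 8.53 to 8.63. Of these 10 genes 6 were called higher and 3 lower. The 3 fell without overlap: Acta2 from 15.99 ± 0.11 to 13.86 ± 0.86, Tagln from 11.87 ± 0.28 to 9.56 ± 0.87 and Kcnj8 from 7.98 ± 0.49 to 5.88 ± 0.3 (limma adjusted p = 0.00246, 0.00216 and 0.000281). Cnn1, which rose, was at 9.65 in sample 14 and 8.01 to 8.28 in samples 16, 18 and 20. Sample 13 was also high in Kit, a marker of interstitial cells of Cajal, at 10.56 against 6.63 to 7.49 in the other CD90-negative samples. In the same list Ano1 was at 11.37 in sample 13 against 9.68 to 10.07. Thbs4, at 7.99, was within the 6.76 to 8.03 of the others, and Hand1 lay under the filter.

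Of 9 enteric neuron markers 3 were tested and called higher, among them Ret, which reached the filter on CD90-positive arrays alone and so had to differ, and 8 of the 9 had both means under the negative controls; the exception, Stmn2, rose from 6.39 ± 0.26 to 11.08 ± 0.51 (limma adjusted p = 2.73e-06). Of 9 endothelial markers 7 were tested and 1, Tek, was called higher. Both means were under the negative controls in 8 of the 9. Cdh5 was at 4.81 to 6.15 on all arrays, and Pecam1, which codes for CD31, at 5.84 to 7.01. Of 4 lymphatic markers 3 were tested, and 2 were called lower and 0 higher. Of 9 leukocyte markers 5 were tested, and 3 were called higher and 0 lower, with Ptprc at or under 5.02. Both means were under the negative controls in 3 of the 4 lymphatic and 8 of the 9 leukocyte markers. Of 10 epithelial markers 0 were called, and their array means, 8.16 to 10.40 and 8.64 to 10.43, were highest in samples 13 and 20. Epcam, against which the cells were sorted, ran from 7.21 to 9.40. Muc2 ran from 10.80 to 14.26 and Car1 from 10.60 to 14.51 over all arrays. Of 7 mesothelial markers 5 were tested, and 2 were called higher and 0 lower. Of these 2, Upk3b reached the filter on CD90-positive arrays alone. Both means were under the negative controls in 5 of the 7. Of 4 markers of interstitial cells of Cajal 3 were tested, and 0 were called higher and 1, Ano1, lower.

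**Figure D4:**
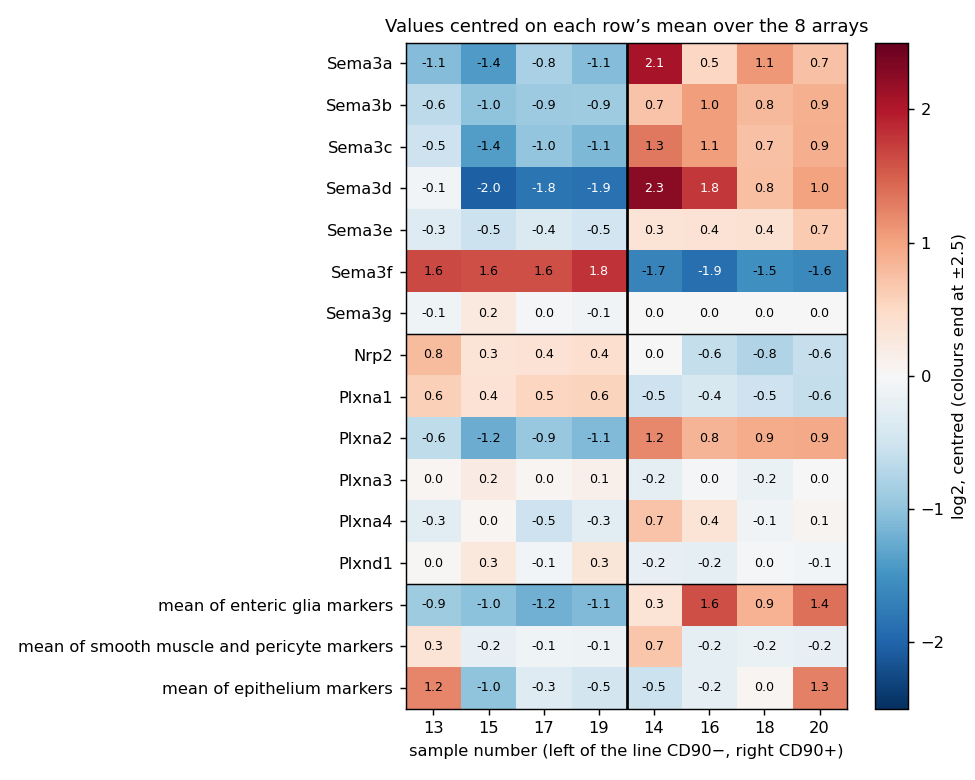
Log2 values of the class 3 semaphorins, their receptors and the means of 3 marker lists on each array, centred on the row's mean over the 8 arrays; the vertical line parts CD90-negative from CD90-positive samples. Sema3d in sample 13, at 8.44 before centring, stands out from the other CD90-negative samples, and the glia mean varies from 6.84 to 8.12 among CD90-positive samples.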

How the data were processed

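The 8 samples, 4 per population, were each run on a one-colour Affymetrix array. Per the labels' protocols, 2 ng of RNA was amplified. The authors deposited log2 values for transcript clusters. They were made, per the submitters' processing notes, with Affymetrix Expression Console 1.1 and RMA, which corrects background, quantile-normalizes the arrays and summarises probes. Its settings and the genome build are not given in the sources used here. Precision is limited by the number of arrays.

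Of 65956 transcript clusters, the platform annotation named 1 gene for 31224, several for 1526 and none for 33206, which are unnamed here; symbols were updated through RefSeq's gene identifiers. Where several clusters named a gene, that of highest mean stood for it. Genes at or above 5.36 on at least 4 of the 8 arrays were tested with limma 3.58.1 in R 4.3.3 (lmFit and eBayes, two-sided, Benjamini-Hochberg, threshold 0.05), without a block. When samples were left out, 3 arrays had to reach this value. The step was tested on simulated data. The members and the 17 gene lists were chosen with earlier results of these data known. Named were all members and measured receptors, the 3 genes of smallest p in each other pathway list and the 3 nearest genes per member. The sort markers, some genes of the other marker lists and genes that a role needed were named too. Xist, Uty, Kit, Ano1, Thbs4, Hand1, Cnn1, Acta2, Tagln, Kcnj8, Tek and Stmn2 were named after their values were seen. So were Dpysl4, Gfap, Ret, Upk3b, Muc2, Car1 and the neighbouring genes. Alternatives changed the filter, normalization, variance model, array weights, cluster, covariate and samples. Figures were drawn with matplotlib 3.10.9.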

Additional observations from a re-analysis of the deposited data

Results flagged for a closer look

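Among 50 groups of 4 samples (25 genes in both populations), 4 held a sample whose gap to the nearest other was unusually large for the range of its group; chance flags about 1 in 20 groups. Sema3d was at 8.44 in the CD90-negative sample 13, against 6.47 to 6.68 in the other 3. Adamts1 was at 10.38 in the same sample, against 9.32 to 9.49. Met was at 6.34 in the CD90-positive sample 14, against 5.96 to 6.00. Sema3e was at 5.93 in the CD90-positive sample 20, against 5.61 to 5.65, all below the negative control rows.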

How the results depend on the processing

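The 6 tested class 3 semaphorins kept their direction and their call under every alternative in which they were tested; Sema3e dropped out under the stricter filter of 6.54 (the 65th percentile), which left 4 members called higher. Leaving out 1 sample, or samples 13 and 14 together, moved the difference of Sema3a between 1.88 and 2.40, of Sema3d between 2.63 and 3.36 and of Sema3f between -3.39 and -3.27, with 5 members higher and 1 lower each time. Receptor counts moved: 2 were called higher with array weights and with samples 13 and 14 as a covariate, and 1 to 2 when a sample was left out; 4 were called lower with median-centred arrays and with array weights, and 2 to 3 when a sample was left out. The cause was not tested. Over all genes, 1920 to 3125 were called higher and 1997 to 3888 lower across alternatives. Thy1 differed by 2.03 to 2.39 when a sample was left out, each time with the smallest exact p that 3 against 4 samples allow, 0.0286. No paired analysis was possible because the titles give each sample its own number and no label ties samples to mice; samples 13 and 14 were alike in Xist and Uty, and with them as a covariate all 6 tested members kept their call. Whether consecutive numbers share a mouse was not tested. Dim values limit Sema3e and Sema3g most.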
